A study of Mus musculus with 4 samples.

Results

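Zic2, Tcf15, Otx2, Foxd3, Sox4, Sox3, Sox11, Sall2, Pou3f1 and Grhl2 encode transcription factors that mark or drive the formative and primed states of pluripotency, the states that follow the naive one. These 10 genes are a list of names, drawn up with earlier results of these data known but with no threshold on their values, and were followed among the 55401 genes of a read count table from mouse embryonic stem cells. All 10 were in the table, and all 10 passed the filter on low counts with 15341 genes in all. The cells were of the line R1 and were grown in 2i/LIF: N2B27 medium on 0.2% gelatin with 1 μM PD0325901 (a MEK inhibitor), 3 μM CHIR99021 (a GSK3 inhibitor) and 10 ng/ml of the cytokine LIF. One group, the control, carries the genotype label WT, and the other carries the label Usp28 KO, a knockout of the gene for the deubiquitinase USP28. Both groups shared the line, the medium and the library protocol, and each had 2 libraries of polyadenylated RNA. How the knockout was made, and whether it is 1 clone or several, is not given in the sources used here.

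In 2i/LIF, embryonic stem cells are held in the naive state, because the inhibitors block ERK signalling and stabilise beta-catenin. On release from the inhibitors, naive factors decline and OTX2, POU3F1 (also called OCT6) and their partners take over enhancers on the way to the formative state, from which germ layers can be specified. OTX2 recruits OCT4 to new enhancers, FOXD3 remodels enhancers during the transition, TCF15 is a bHLH factor held in check by Id proteins, and GRHL2 opens enhancers of epithelial genes. The proteins of the SOX, ZIC, SALL and POU families named here have close relatives that are already abundant in naive cells.

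The libraries held 16595196 to 19533608 counts. Values below are reads per 1e6 counts (CPM) after TMM scaling (trimmed mean of M values), given as control replicate 1, control replicate 2, Usp28 KO replicate 1 and Usp28 KO replicate 2, and as mean ± SD over n = 2 libraries per group. A log2 fold change is the Usp28 KO level less the control level, ± standard error, by edgeR's quasi-likelihood test with Benjamini-Hochberg adjustment over all tested genes. Counts of Usp28 itself were 3690 and 3120 in control and 3392 and 3319 in Usp28 KO (edgeR, log2 fold change -0.11, adjusted p = 0.857), so the gene-level count does not check the label. Pluripotent cell markers were present in all 4 libraries: 0 of 10 were under 1 CPM, and their summed level was 5420 to 5660 CPM in control and 5640 to 5770 CPM in Usp28 KO libraries. Libraries differed in how expression depended on the GC content of transcripts. Against the mean of the other libraries, the rank correlation of log2 CPM with GC content over 10701 genes was lowest in control replicate 2 at -0.441 and highest in Usp28 KO replicate 2 at 0.451, with 0.0554 and 0.00321 in the first libraries, so some values are also given after a correction for GC content.

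None of the 10 factors passed the test between the groups over all 4 libraries, fitted without a replicate block. At a threshold of 0.05 on the adjusted p, edgeR called 0 of them in either direction, beside 0% of all 15341 genes higher and 0% lower. At an unadjusted p under 0.05 edgeR also counted 0 of the 10, beside 6.86% of all genes higher and 4.34% lower. DESeq2 called 0 of the 8 factors to which it gave an adjusted p (Pou3f1 and Grhl2 had none), beside 0.622% of 13173 genes higher and 0.38% lower. The median log2 fold change of the 10 was 0.11, with 7 above 0 and 3 below, beside a median of -0.004 over all tested genes, of which 49.4% were above 0. The direction of the members' median turned with the libraries used: it was -0.064 without Usp28 KO replicate 1 and -0.041 without control replicate 2, but 0.26 without Usp28 KO replicate 2 and 0.23 without control replicate 1. Over all 4 libraries and after GC correction, the median was 0.0148 for the members and -0.035 for all tested genes. In CPM without GC correction, Pou3f1 was higher in both Usp28 KO libraries than in both control libraries. Foxd3 and Grhl2 were lower in both, and for the other 7 factors the groups overlapped. Groups that did not overlap were found for 21.4% of all tested genes in the higher direction and 20.4% in the lower, and for 41.8% in either, so that 3 of 10 was not above the background. In RNA from whole cultures, fewer cells that express a gene and less RNA per cell cannot be told apart.

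**Figure D1:**
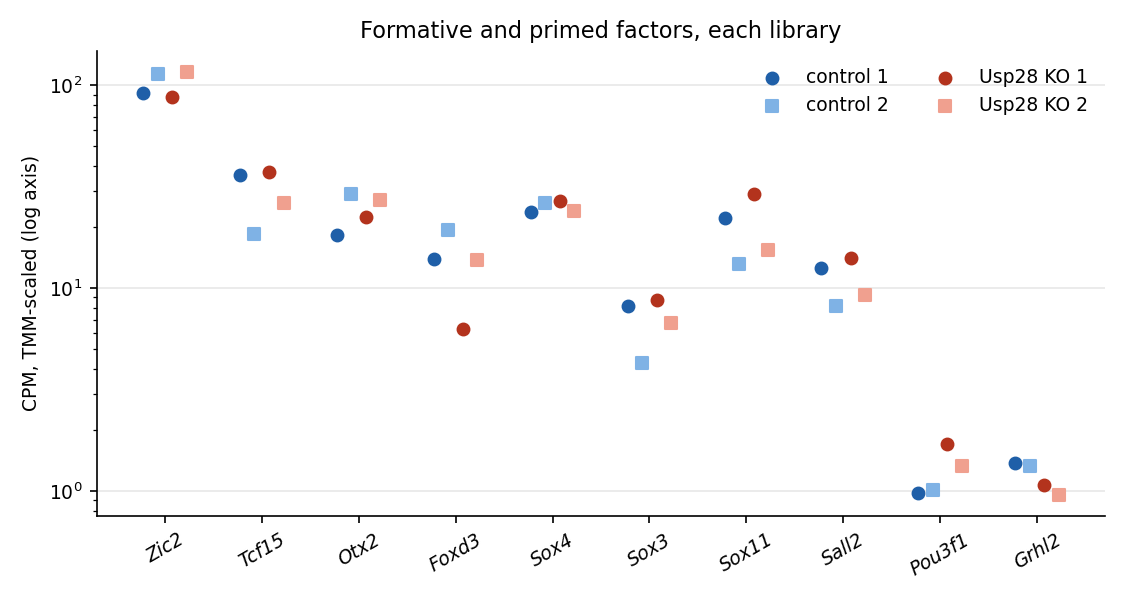
CPM (log axis) of each factor in each of the 4 libraries, ordered by level per kilobase; circles are replicate 1 and squares replicate 2, blue for control and red for Usp28 KO. Zic2 sits between 87.3 and 116.5 CPM, Pou3f1 and Grhl2 between 0.96 and 1.71 CPM, and blue and red points interleave for 7 of the 10 genes.

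**Figure D2:**
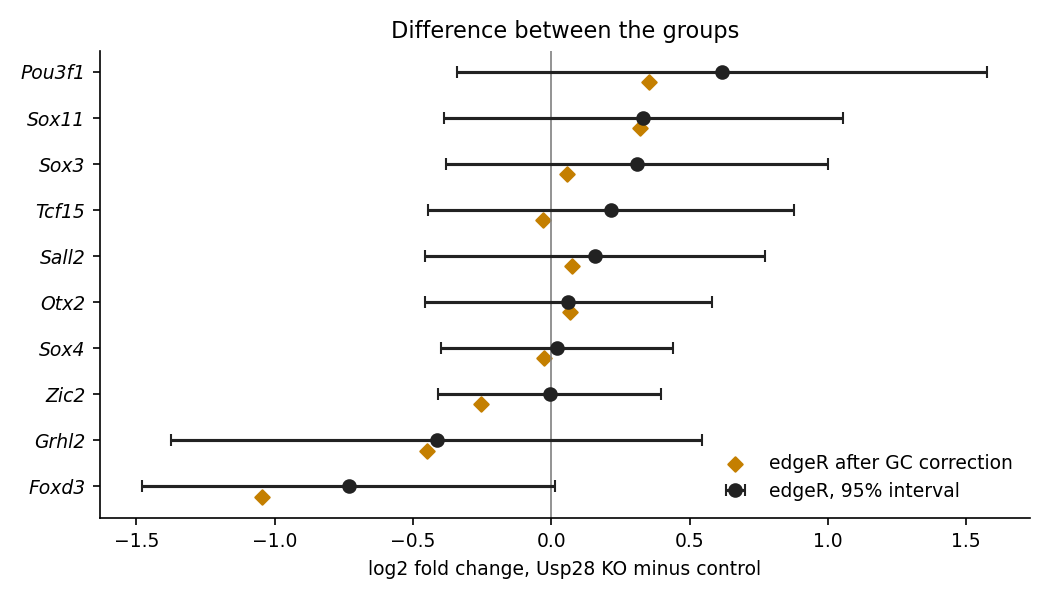
Log2 fold change of Usp28 KO minus control for each factor (black points, edgeR, with 95% intervals) and the same after GC correction (orange diamonds, without intervals). Each interval includes 0, and the interval of Foxd3 runs from -1.48 to 0.01.

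Otx2 (ENSMUSG00000021848, mm10 chromosome 14, 48657677 to 48673819, minus strand), the homeobox factor that starts the naive-to-formative switch, was expressed at a moderate level in every library. It stood at 18.2 and 29.3 CPM in the control libraries and at 22.4 and 27.1 CPM in the Usp28 KO libraries. The highest and the lowest value were both in control libraries, and the group means were 23.7 ± 7.80 and 24.7 ± 3.35 CPM. The log2 fold change was 0.062 ± 0.24 (edgeR, adjusted p = 0.958), with a 95% interval from -0.46 to 0.58. It was -0.24 without control replicate 1 and 0.43 without control replicate 2. The overlapping antisense transcript Otx2os1 had 0 to 3 counts per library.

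Pou3f1 (ENSMUSG00000090125, chromosome 4, 124656807 to 124660655, plus strand), the POU factor that joins OTX2 at formative enhancers, was close to the lower end of what was tested. Its counts were 19 and 16 in control and 32 and 25 in Usp28 KO. These were 0.973, 1.01, 1.71 and 1.33 CPM, so the Usp28 KO libraries were the higher ones and the groups did not overlap. The log2 fold change was 0.62 ± 0.44 (edgeR, adjusted p = 0.657) with a 95% interval from -0.34 to 1.58. After GC correction the log2 fold change was 0.35, a reduction of more than 1.5 times, and the groups overlapped. The corrected values were 0.998 and 1.19 CPM in control and 1.61 and 1.17 CPM in Usp28 KO. The transcript has 63.9% G and C.

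Foxd3 (ENSMUSG00000067261, chromosome 4, 99656299 to 99658622, plus strand), a forkhead factor of the epiblast and neural crest, had the largest difference of the 10. Its counts were 273 and 307 in control and 117 and 258 in Usp28 KO. In CPM these were 13.97 and 19.4 in control against 6.26 and 13.8 in Usp28 KO. The groups did not overlap, but control replicate 1 and Usp28 KO replicate 2 lay next to each other, and the low value came from Usp28 KO replicate 1. Means were 16.7 ± 3.81 and 10.01 ± 5.31 CPM, and the log2 fold change was -0.73 ± 0.34 (edgeR, unadjusted p = 0.0538, adjusted p = 0.459). DESeq2 gave -0.74 (unadjusted p = 0.0364, adjusted p = 0.489). Leaving out single libraries moved the value: it was -0.27 without Usp28 KO replicate 1, and it was -0.49 without control replicate 2 and -0.95 without control replicate 1. Without Usp28 KO replicate 2 it was -1.41. In the fit without Usp28 KO replicate 2 Foxd3 fell (edgeR, adjusted p = 0.00361), beside 1.25% of the 16013 genes tested there that were lower and 0.912% that were higher. That fit takes the lone Usp28 KO library to vary as the control libraries do. After GC correction, with 65.1% G and C in the transcript, the log2 fold change was -1.05 (edgeR, adjusted p = 0.393).

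The region before the Foxd3 start is shown because a non-coding gene on the other strand begins 1316 bases upstream of it. That gene, Gm12688 (chromosome 4, 99653607 to 99654983, minus strand), stood at 3.63 and 4.10 CPM in control and 2.41 and 2.77 CPM in Usp28 KO libraries. Its Usp28 KO values were both under its control values, and edgeR gave a difference of -0.57 ± 0.32 in log2 (adjusted p = 0.552). Below are the 250 bases before the RefSeq start on GRCm38.p6, plus strand, chr4:99656049-99656298, 5′ to 3′. Capitals mark a match to CACGTG, the E-box that MYC with MAX and other bHLH factors bind.
Foxd3: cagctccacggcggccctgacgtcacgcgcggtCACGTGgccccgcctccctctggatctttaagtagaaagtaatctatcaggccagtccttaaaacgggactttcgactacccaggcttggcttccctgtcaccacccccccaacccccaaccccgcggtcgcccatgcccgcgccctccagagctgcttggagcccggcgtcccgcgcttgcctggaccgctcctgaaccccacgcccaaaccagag
This palindromic E-box was found in 6.02% of 32817 such windows of mouse genes. A match describes letters only and is not a bound site. Windows of the other members in the RefSeq table (4 of Otx2, 1 each of Sox4 and Sox11, 2 of Sall2) held no CACGTG.

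Sox3 (ENSMUSG00000045179, chromosome X, 60891366 to 60893430, minus strand), a SOXB1 factor that can stand in for SOX2, stood at 8.14 and 4.29 CPM in control and 8.77 and 6.72 CPM in Usp28 KO libraries. Control replicate 2 was the lowest library and Usp28 KO replicate 1 the highest, while Usp28 KO replicate 2 lay between the control libraries. The log2 fold change was 0.31 ± 0.32 (edgeR, adjusted p = 0.776), -0.081 without control replicate 2 and 0.85 without control replicate 1. After GC correction it was 0.056, and the Sox3 transcript was the richest in G and C of the 10, at 66.4%.

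Sox4 and Sox11 are the SOXC factors of progenitor cells and early neural differentiation. Sox4 (ENSMUSG00000076431, chromosome 13, 28948919 to 28953713, minus strand) was the steadiest of the 10 across libraries, at 23.9, 26.4, 26.96 and 23.95 CPM. Its log2 fold change was 0.021 ± 0.19 (edgeR, adjusted p = 0.984), with a 95% interval from -0.40 to 0.44, and -0.026 after GC correction. Sox11 (ENSMUSG00000063632, chromosome 12, 27334264 to 27342574, minus strand) ranged more widely, at 22.1, 13.1, 29.05 and 15.4 CPM. Its high values were in the first library of each group and its low values in the second, so the groups overlapped. The log2 fold change was 0.33 ± 0.32 (edgeR, adjusted p = 0.763). With control replicate 1 removed it was 0.76, with Usp28 KO replicate 2 removed 0.71, and it was -0.20 without Usp28 KO replicate 1.

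The sequences before the starts of Sox4 and Sox11 are set side by side to describe their letters. Whether the sequences bear on the spread of either gene between libraries was not tested. Each line gives 250 bases before the RefSeq start on GRCm38.p6, minus strand, 5′ to 3′, at chr13:28953700-28953949 for Sox4 and chr12:27342719-27342968 for Sox11. Capitals mark CCAAT boxes (CCAAT or ATTGG) and GC boxes (GGGCGG or CCGCCC), read on both strands.
Sox4: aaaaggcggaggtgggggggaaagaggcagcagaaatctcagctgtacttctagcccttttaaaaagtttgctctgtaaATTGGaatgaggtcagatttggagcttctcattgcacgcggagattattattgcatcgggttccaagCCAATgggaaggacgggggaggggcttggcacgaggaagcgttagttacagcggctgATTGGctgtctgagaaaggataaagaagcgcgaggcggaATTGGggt
Sox11: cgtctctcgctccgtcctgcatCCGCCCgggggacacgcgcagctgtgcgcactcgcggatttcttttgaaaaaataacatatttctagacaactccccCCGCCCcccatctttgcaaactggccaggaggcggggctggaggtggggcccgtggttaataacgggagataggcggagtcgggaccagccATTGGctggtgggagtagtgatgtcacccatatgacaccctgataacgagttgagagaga
The Sox4 window held 4 CCAAT boxes and 0 GC boxes, and the Sox11 window held 1 and 2. A CCAAT box was present in 33.8% and a GC box in 32.7% of all windows. Neither window held TATAAA, which 12.4% of windows did. The windows had 50.8% and 58.0% G and C and 11 and 17 CG dinucleotides, beside medians of 52.4% and 6 over all windows.

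Zic2 (ENSMUSG00000061524, chromosome 14, 122475435 to 122479852, plus strand), a zinc finger factor that takes part in the switch of enhancers at the formative stage, was the most abundant of the 10. It stood at 91.2 and 113.5 CPM in control and 87.3 and 116.5 CPM in Usp28 KO libraries. The 2 high libraries were one of each group, and the log2 fold change was -0.0055 ± 0.19 (edgeR, adjusted p = 0.997; 95% interval -0.41 to 0.40). After GC correction it was -0.25 (edgeR, adjusted p = 0.632). On the opposite strand, the processed transcript 2610035F20Rik, 236 bases away, had a log2 fold change of -0.12 ± 0.28, and Zic5, 9758 bases away, one of -0.00076 ± 0.18.

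Sall2 (ENSMUSG00000049532, chromosome 14, 52311172 to 52328762, minus strand), a Spalt-like zinc finger factor, stood at 12.6, 8.13, 14.02 and 9.23 CPM. As for Sox11, the first library of each group was the high one, and the log2 fold change was 0.16 ± 0.28 (edgeR, adjusted p = 0.892). Removing control replicate 1 gave 0.51 and removing Usp28 KO replicate 1 gave -0.18. After GC correction it was 0.074.

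Tcf15 (ENSMUSG00000068079, chromosome 2, 152143561 to 152149097, plus strand) was counted 708 and 294 times in control and 700 and 494 times in Usp28 KO. In CPM these were 36.2, 18.5, 37.5 and 26.4, with the lowest value in control replicate 2. The means were 27.4 ± 12.5 and 31.9 ± 7.85 CPM, and the log2 fold change was 0.22 ± 0.30 (edgeR, adjusted p = 0.848). Without control replicate 1 it was 0.78 and without control replicate 2 it was -0.19. After GC correction it was -0.03. TCF15 acts with E proteins and is restrained by Id proteins, and of these partners Id3 fell from 13.97 and 8.39 CPM in control to 3.42 and 4.11 CPM in Usp28 KO libraries by DESeq2 (adjusted p = 0.00548). Id3 did not pass by edgeR (log2 fold change -1.57, adjusted p = 0.0766). Id1, Id2 and Id4 had log2 fold changes of -0.32, 0.40 and -0.61, and the E protein genes Tcf3, Tcf4 and Tcf12 of 0.08, -0.35 and -0.09.

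Grhl2 (ENSMUSG00000022286, chromosome 15, 37233036 to 37363569, plus strand), the grainyhead factor of epithelial enhancers, was the lowest of the 10 for its length. With 27 and 21 counts in control and 20 and 18 in Usp28 KO, it stood at 1.38, 1.32, 1.07 and 0.96 CPM. Both Usp28 KO values were under both control values, and the log2 fold change was -0.41 ± 0.44 (edgeR, adjusted p = 0.787; 95% interval -1.37 to 0.55). Among 13 tested epithelial genes tied to GRHL2, edgeR called 0. At an unadjusted p under 0.05 edgeR counted 5 higher and 0 lower, beside 6.86% and 4.34% of all genes. Of the 12 with an adjusted p, DESeq2 called 1 higher, the claudin gene Cldn7, and 0 lower, beside 0.622% and 0.38% of all genes. The median log2 fold change of that list was 0.42, beside -0.004 over all tested genes, and 0.208 after GC correction. Cldn7 rose by DESeq2 from 2.41 and 3.85 to 9.74 and 8.85 CPM (adjusted p = 0.00729; edgeR, adjusted p = 0.0715). Cldn6, Cldn3 and the protease gene St14 had log2 fold changes of 1.00, 1.01 and 0.50 without passing, and the E-cadherin gene Cdh1 one of -0.0078.

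Per kilobase of exon, and averaged over the 4 libraries, Zic2 at 35.5 and Tcf15 at 30.2 CPM per kb led the 10, at the 90.5 and 88.6 percentiles of all tested genes. Their ranges overlapped, and Zic2 was the higher in 2 of 4 libraries. Otx2, Foxd3 and Sox4 came next at 5.74, 5.74 and 5.27 CPM per kb, and their ranges overlapped. Foxd3 ran from 2.69 to 8.33 and also overlapped with Sox3 and Sox11. In Usp28 KO replicate 1 it was under both, at 2.69 beside 4.25 for Sox3 and 3.5 for Sox11. Sox3, Sox11 and Sall2 followed at 3.38, 2.39 and 2.03, each above the next in all 4 libraries although their ranges overlapped. Pou3f1 at 0.327 and Grhl2 at 0.137 CPM per kb were the lowest, at the 7.82 and 2.01 percentiles, and did not overlap with each other or with Sall2.

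Several members were minor transcripts of their family in these cells. Of the summed SOXB1 level (Sox1, Sox2, Sox3, in CPM per kb), Sox2 held 97.2% to 97.6% and Sox3 0.831% to 1.49% over the 4 libraries. Of the SOXC level, Sox12 held 69.4% to 82.7%, Sox4 12.6% to 18.9% and Sox11 4.62% to 11.7%. Pou5f1, which encodes OCT4, held 90.0% to 94.2% of the POU family and Pou3f1 0.0845% to 0.161%. Sall1 and Sall4 held 63.2% to 71.2% and 23.7% to 30.1% of the SALL family, and Sall2 0.767% to 2.07%. Among the grainyhead genes, Grhl3 held 90.6% to 91.6% and Grhl2 0.508% to 0.948%. By contrast, Otx2 held 96.4% to 97.9% of the OTX family and Foxd3 95.3% to 99.6% of the FOXD family. Without a replicate block edgeR called no gene in the families around the members, beside 0% of all 15341 genes. Only Id3, counted with the partners of TCF15, passed by DESeq2 among them.

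**Figure D3:**
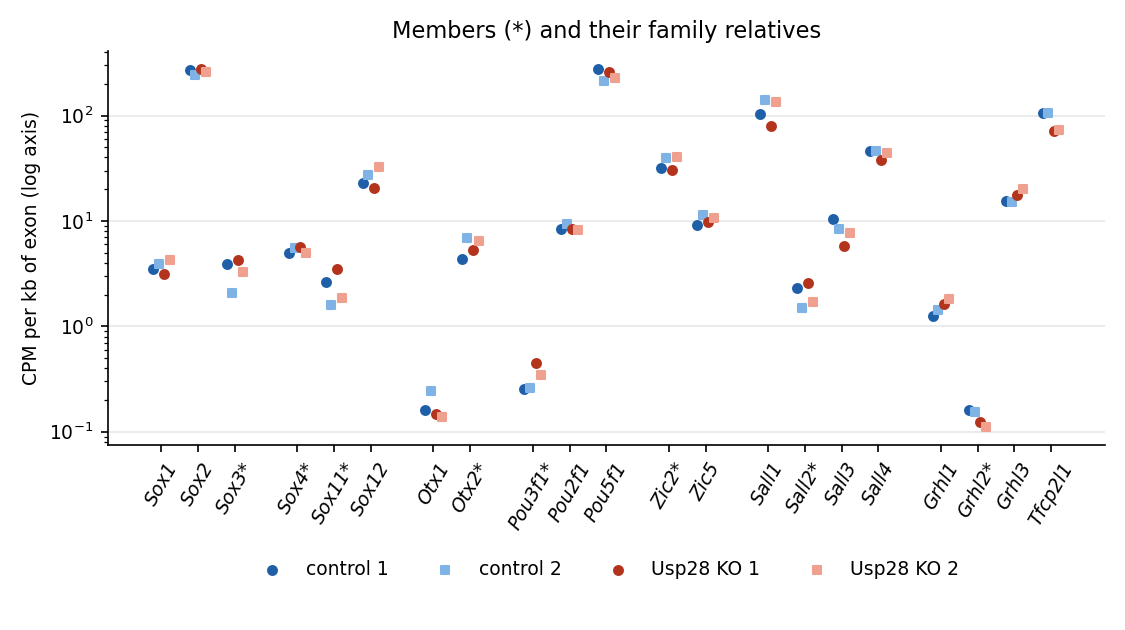
Level in CPM per kb of exon (log axis) of members, marked with an asterisk, and some relatives of the same family in the 4 libraries (circles replicate 1, squares replicate 2, blue control, red Usp28 KO). Sox2 and Pou5f1 stand far above Sox3 and Pou3f1 in every library, while Otx2 stands above Otx1.

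For most members, as for most tested genes, the larger difference between libraries of a group exceeded the difference between the groups. The difference between groups is here the edgeR log2 fold change, and differences within a group are in log2 CPM, both without sign. For 8 of the 10 genes the larger within-group difference exceeded the fold change. This held for 70.8% of 15321 tested genes with a read in each library. For 7 of 10 both within-group differences exceeded the fold change, beside 39.2%. The median size of the within-group difference was 0.555 in control and 0.40 in Usp28 KO, against 0.244 and 0.257 over all these genes. The median size of the edgeR log2 fold change was 0.265 against 0.211. Otx2, Foxd3 and Zic2 were higher in the second library of both groups, and Sox3, Sox11, Sall2, Tcf15 and Grhl2 were lower in it. This made 8 of 10 with the same direction in both groups, beside 64.2% of all these genes. The labels do not tie libraries of the same number to each other.

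**Figure D4:**
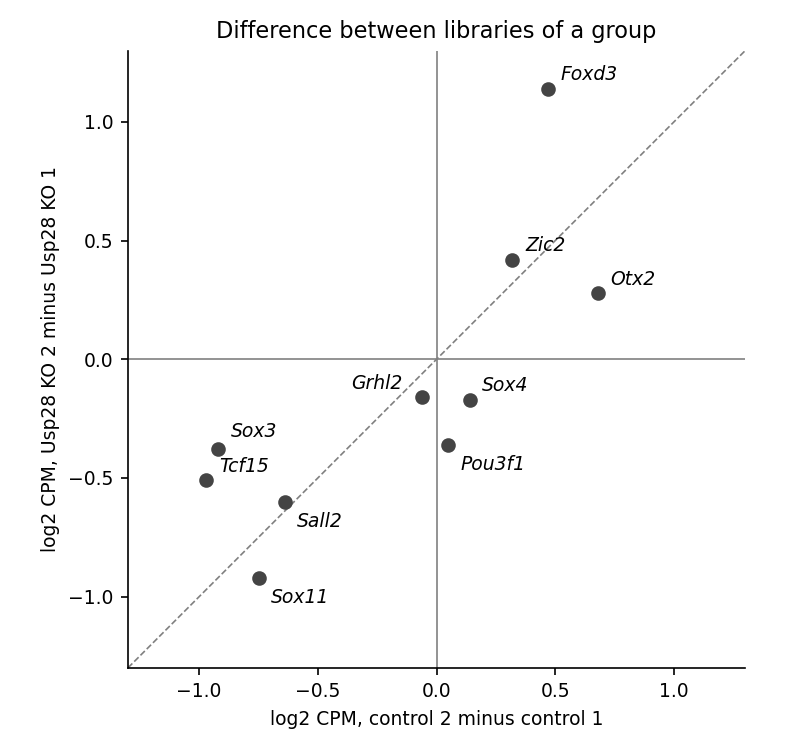
Log2 CPM of the second library minus the first in control (x axis) and Usp28 KO (y axis); each point is a factor and the dashed line marks equal differences. Points in the upper right and lower left quadrants, 8 of the 10, differ in the same direction in both groups, with Sox11 at -0.75 and -0.92 and Foxd3 at 0.47 and 1.14.

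**Figure D5:**
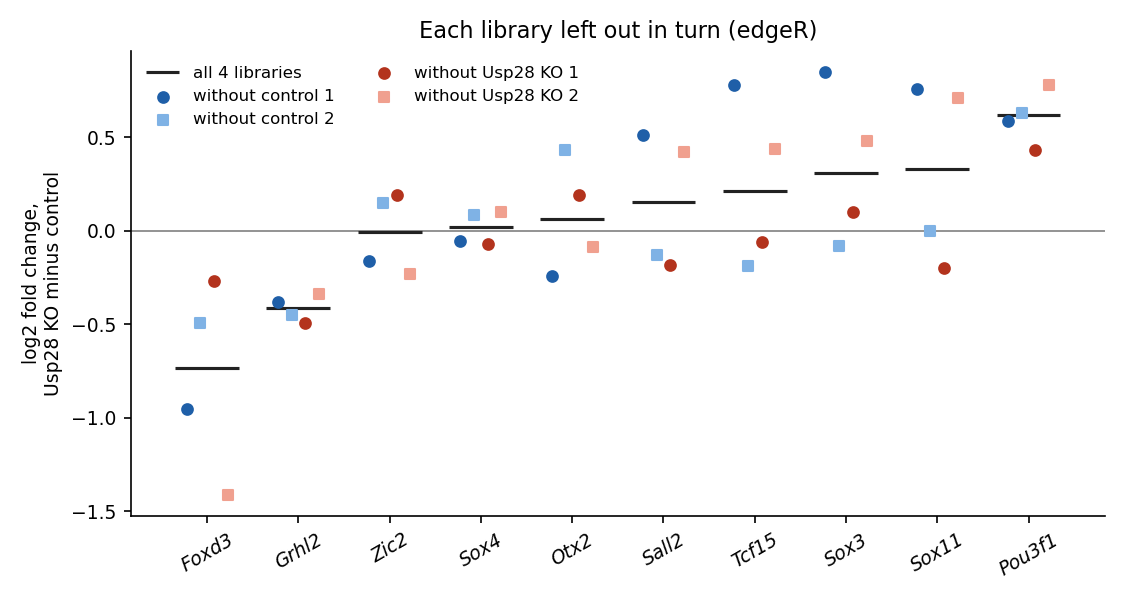
Log2 fold change of each factor with all 4 libraries (black bars) and with each library left out (points, coloured by the library removed), by edgeR. For 7 of the 10 genes at least 1 point lies on the other side of 0, while Foxd3, Grhl2 and Pou3f1 keep their side, from -1.41 to -0.27, -0.49 to -0.34 and 0.43 to 0.78.

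Fitted without a replicate block, the other genes of the formative and primed states did not pass by edgeR or DESeq2 either. Of 14 tested genes of that list, edgeR called 0 (at an unadjusted p under 0.05: 1 higher and 1 lower), as did DESeq2 among the 13 with an adjusted p. Of the 14, 7 had log2 fold changes above 0 and 7 below. The median was 0.021, -0.036 without Usp28 KO replicate 2 and 0.16 without Usp28 KO replicate 1. Fgf15 had the smallest p of the list, at 1.13 and 1.70 CPM in control and 4.60 and 4.53 CPM in Usp28 KO libraries (a difference of 1.70 in log2; edgeR, adjusted p = 0.102; DESeq2, adjusted p = 0.0523). Zfp281, a zinc finger factor that promotes the exit from the naive state, was at 152 and 173 against 116 and 122 CPM (log2 fold change -0.45; edgeR, adjusted p = 0.318). Fgf5, the usual formative marker, did not pass the filter on low counts, with 0.13 to 0.26 CPM in control and 0.05 CPM in each Usp28 KO library.

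Naive factors had 12 of 14 log2 fold changes below 0, with a median of -0.28. In fits without a replicate block 0 passed by edgeR or DESeq2. At an unadjusted p under 0.05 edgeR counted 0 higher and 4 lower. Over all tested genes 49.4% were above 0, and 4.34% were lower at that unadjusted p. Gbx2, Tfcp2l1, Nr5a2 and Nr0b1 had the smallest p, with log2 fold changes of -0.82, -0.54, -0.43 and -0.44. That list's median was -0.063 without Usp28 KO replicate 1, -0.47 without Usp28 KO replicate 2 and -0.351 after GC correction. Of 15 regulators of the exit from the naive state, 0 passed by either tool without a block. At an unadjusted p under 0.05 edgeR counted 1 higher and 1 lower. For these regulators 4 of 15 log2 fold changes were above 0 and 11 below, and the median was -0.0587. It was -0.19 without Usp28 KO replicate 2 and -0.161 after GC correction. For Fgf4, the autocrine growth factor of that exit, edgeR gave a log2 difference of 0.43 (adjusted p = 0.337).

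Some markers of differentiated cells were expressed: 4 of 10 neuroectoderm, 4 of 10 mesoderm and 5 of 10 endoderm markers passed the filter on low counts. The neuroectoderm marker Sox1 stood at 16.8 and 19.0 CPM in control and 15.2 and 20.4 CPM in Usp28 KO libraries. The neuroectoderm markers, whose tissue uses Sox3, Sox4, Sox11 and Zic2, summed to 70.1 to 104 CPM in control and 79.7 to 80.2 CPM in Usp28 KO libraries, mostly from Tubb3, Sox1 and Pax6. Of these 10 markers 6 were under 1 CPM in every library, and Neurog2 was at 0 in all. Mesoderm and endoderm markers summed to 17.7 to 26.8 and 9.84 to 13.4 CPM over all libraries, with Cer1, and Afp and Ttr, at 0. Fibroblast feeder markers summed to 3.74 to 5.11 CPM in control and 5.67 to 8.27 CPM in Usp28 KO, sums that did not overlap. Of those 10 markers 2 passed the filter, and for 1 of these 2 the groups did not overlap. That was so for 41.8% of all tested genes. Under 1 CPM in every library were 9 of the 10, and Twist2, Dcn, Lum and Postn were at 0. Trophectoderm markers summed to 143 to 182 CPM in control and 144 to 178 CPM in Usp28 KO, mostly Tfap2c. Among them the homeobox gene Esx1 rose by DESeq2 from 1.43 and 1.70 to 8.19 and 5.33 CPM (adjusted p = 0.00125; edgeR, adjusted p = 0.0611), while Tpbpa and Plac1 were at 0. The 2-cell-like markers summed to 2.08 to 4.28 CPM over all libraries. The part of such cells in the values of the 10 factors was not tested.

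Within 10 kb of the members on either strand the table listed 18 other genes, beside 7 of the 10. The spans of 7 of them overlapped a member, with at most 3 counts in a library. Of the 18, 4 passed the filter: Gm12688, Zic5, 2610035F20Rik and, 6044 bases from Sall2, the RNA methyltransferase gene Mettl3, whose difference was -0.16 ± 0.18 in log2 (edgeR, adjusted p = 0.799).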

How the data were processed

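Polyadenylated RNA of 2 control and 2 Usp28 KO libraries was sequenced, and the authors deposited raw read counts per gene. The submitters' processing notes list HISAT2, featureCounts, DESeq2 and mm10 and give no versions. Which strand setting, rule for multi-mapping reads and annotation were used is not given in the sources used here. Members and overlapping or near-identical genes could share reads. Symbols, transcript length and GC content came from GENCODE M21 (55141 of 55401 identifiers matched without the version suffix). Promoter windows are from RefSeq on GRCm38.p6, which listed 5 of the 10 members.

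All fits ran in R 4.3.3, with edgeR 4.0.16 on the counts of all 4 libraries as the main one: filterByExpr (minimum count 10, minimum total 15), TMM scaling and a robust quasi-likelihood fit, with a threshold of 0.05 on the adjusted p. Intervals are 95% intervals of that fit. Calls and p-values of edgeR in the text come from fits without a replicate block, unless a block is named. CPM used the totals after the filter times the TMM factors, and CPM per kb divided them by the table's exon length. Alternatives were DESeq2 1.42.0, limma-voom (limma 3.58.1), other scalings and filters, removal of 52 genes (mitochondrially encoded and the 20 most abundant), a GC correction (natural spline, 5 degrees of freedom), a replicate block and leaving out each library. The edgeR, limma-voom and DESeq2 fits were also run on simulated counts, drawn independently for each library and without a GC trend. That run cannot show how a GC trend or a tie between same-numbered libraries affects the calls. Nothing in the labels says that the libraries within a group are separate cultures. The p-values therefore reflect the spread among these 4 libraries alone, and that spread may be technical.

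The members, the gene lists, the motifs and the rule for named genes (all members, Usp28, tested relatives, up to 4 genes by smallest p from each other list, and genes within 10 kb) were chosen with earlier results of these data known. The marker genes, Cdh1 and Fgf5 were named after their values were seen.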

Additional observations from a re-analysis of the deposited data

How the results depend on the processing

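Over 15 alternatives, 125 of 148 values of the members kept their direction and their side of the threshold, 20 changed direction and 3, all of Foxd3, passed it. All genes called, 0 by edgeR, numbered 132 by DESeq2 (82 higher, 50 lower), 21 with upper-quartile scaling, 29 with library totals alone, 322 with no filter and 142 to 346 with 1 library left out. With the replicate number as a block (replicate block) edgeR called 1681 genes (965 higher, 716 lower), and with the block and GC correction 2285 (858 higher, 1427 lower). The labels do not say that a number ties libraries to each other. Deviations of same-numbered libraries from their group means were correlated at 0.517 across 10704 genes, which are not independent replicates. Members called numbered 1 with the block, 1 with the block and GC correction, and 0 to 1 with a library left out. That 1 was Foxd3, at -0.80 (adjusted p = 0.000515) with the block and -1.09 (adjusted p = 0.000934) with the block and GC correction, where 4.67% and 9.3% of all genes were lower. Genes called in the lists around the members were 0 by edgeR. They numbered 4 with no filter (2 higher, 2 lower), where 322 of 27042 genes were called. With the block they numbered 24 (9 higher, 15 lower), beside 6.29% of all genes higher and 4.67% lower. With the block and GC correction they numbered 32 (5 higher, 27 lower), beside 5.59% of all genes higher and 9.3% lower. Some genes stand in several lists, and no share of the list genes is given. Changes of direction stood at -0.026 for Sox4 with GC correction and also with the block and GC correction, at -0.03 and -0.013 for Tcf15 under the same, and for Zic2 at 0.052 with upper-quartile scaling, 0.056 with library totals and 0.0081 with a filter of 50 counts. With 1 library left out the log2 fold change ran from -0.24 to 0.43 for Otx2, -0.081 to 0.85 for Sox3, -0.068 to 0.1 for Sox4, -0.2 to 0.76 for Sox11, -0.23 to 0.19 for Zic2, -0.18 to 0.51 for Sall2 and -0.19 to 0.78 for Tcf15. With the longest transcript as length, levels were 9.35 CPM per kb for Otx2, 41.9 for Zic2 and 0.239 for Grhl2. Within 50 kb 43 genes lay beside the members. Pou3f1 and Grhl2 did not pass the filter of 50 counts and have no value there. The cause of these differences was not tested. Counts of 16 to 32 per library limit Pou3f1 and Grhl2.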
